A study of Mus musculus with 2 samples.

Results

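Fatty acid oxidation and its control by the peroxisome proliferator-activated receptors (PPARs) were followed through 33 listed genes in single-cell RNA data from the mouse corneal epithelium. The members were found by their symbols in the deposited count matrix, and 32 of the 33 were present among 17492 genes. Pparg was not analysed here. The study compared 2 libraries of male C57BL/6J mice aged 20 weeks, control and diabetic, each a pool of 4 corneas from 2 mice. The diabetic mice had received 1 dose of streptozotocin, 160 mg/kg, a toxin that destroys the insulin-producing beta cells of the pancreas, and their blood glucose had stayed over 250 mg/dL through 12 weeks. The control mice had received citrate buffer of pH 4.5. No genetic change is named for either pool. The model is one of insulin loss after a toxin, and mice that did not stay hyperglycaemic were not counted as diabetic.

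Fatty acids enter a cell, are bound by carrier proteins and are joined to coenzyme A by the acyl-CoA synthetases. They are then stored in lipid droplets, passed to peroxisomes, or carried into mitochondria by the carnitine shuttle, where the beta-oxidation spiral shortens them and hands electrons to the electron transfer flavoprotein. The PPARs are nuclear receptors that bind fatty acids, pair with the retinoid X receptor and switch on many of these genes. In fasting liver Ppara drives this programme, while Ppard is known for its role in keratinocytes of the skin.

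The control library held 9605 cells with 196359192 unique molecular identifiers (UMIs, 1 per captured RNA molecule) and the diabetic library 8203 cells with 171030636. The median per cell was 16487 UMIs in control and 17677 in diabetic cells, and 18 cell barcodes occurred in both libraries. The authors gave each cell 1 of 8 labels, LSC, Basal, TAC1, TAC2, Wing, Squam, Conj or Immune, and the sources used here do not spell these out. Krt12, the keratin of the corneal epithelium, stood at 21398 CPM (counts per 1000000 summed UMIs) in control and 21165 in diabetic cells. In paired values here and below the control library comes first. The summed squamous list was highest in Squam, the conjunctival list in Conj and the myeloid list in Immune cells, although Cldn4 of the squamous list was highest in Conj (238 and 272 CPM) and Cyp2f2 of the conjunctival list in LSC (267 and 236). The basal markers Itgb4, Col17a1, Itga6 and Wnt10a were higher in Basal than in Wing cells, and Krt5 was higher in Wing (11540 and 12114 CPM against 6535 and 6479). The limbal markers Gpha2, Apoe, Krt14, Ifitm3 and Cd63 were higher in LSC than in Conj cells, and Krt15 was higher in Conj (26994 and 27484 CPM against 10177 and 7937). Each group was 1 library, so no test was possible, no p-value is given and every interval covers counting error only. Calls between the libraries rest on size alone. A called gene had a CPM at least 1.5 times higher in either library than in the other, 50 or more counts in sum, and 95% Poisson intervals that lay apart.

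Promoter sequences were matched for 27 of the 32 member genes, as 28 windows from 250 bases before to 50 after the start site (RefSeq, GRCm38.p6), with none matched for Hsd17b4, Angptl4, Decr1, Fabp5 and Acaa2. The hexamer AGGTCA, the letters that a PPAR and its partner each read, occurred on either strand in 6 of the 28 windows, those of Acadm, Acadvl, Cd36, Cpt1a, Echs1 and Plin2, against 16.3% of all 32851 promoter windows. The direct repeat of such hexamers, 2 copies of AGGNCA with 1 base between them (N stands for any base), was searched on both strands and occurred in 0 of the member windows and in 0.381% of all windows. A match is a stretch of letters and not a measured binding site. The windows of 3 members with different patterns below are shown, those of the droplet gene Plin2, the shuttle gene Cpt1a and the dehydrogenase gene Acadm. Each is printed 5′ to 3′ on the strand of its gene, with the hexamer or its reverse complement in capitals. The windows are chr4:86670010-86670309 (minus strand) for Plin2, chr19:3323051-3323350 (plus strand) for Cpt1a and chr3:153944594-153944893 (minus strand) for Acadm.
Plin2: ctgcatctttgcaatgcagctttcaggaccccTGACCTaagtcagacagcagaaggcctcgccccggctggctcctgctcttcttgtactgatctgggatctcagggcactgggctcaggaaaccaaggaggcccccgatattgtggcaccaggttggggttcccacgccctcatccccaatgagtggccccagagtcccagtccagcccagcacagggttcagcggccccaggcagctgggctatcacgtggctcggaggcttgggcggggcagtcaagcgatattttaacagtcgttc
Cpt1a: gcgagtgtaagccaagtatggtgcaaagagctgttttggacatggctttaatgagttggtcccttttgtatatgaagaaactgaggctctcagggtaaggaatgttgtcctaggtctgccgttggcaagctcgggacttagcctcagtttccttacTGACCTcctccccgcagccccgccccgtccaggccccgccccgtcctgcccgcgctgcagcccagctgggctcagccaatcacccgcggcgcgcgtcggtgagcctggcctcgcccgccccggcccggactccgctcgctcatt
Acadm: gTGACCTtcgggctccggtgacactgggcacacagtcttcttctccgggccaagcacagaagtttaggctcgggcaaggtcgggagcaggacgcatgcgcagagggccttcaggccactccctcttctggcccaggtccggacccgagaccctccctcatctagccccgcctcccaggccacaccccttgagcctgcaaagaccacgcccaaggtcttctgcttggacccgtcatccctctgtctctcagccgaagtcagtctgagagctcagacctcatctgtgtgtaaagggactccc
The capitals begin at position -218 from the start site in Plin2, -94 in Cpt1a and -249 in Acadm, and in all 3 windows the hexamer lies on the strand opposite to the gene.

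Over all cells no member with enough counts differed by 1.5 times or more between the diabetic and the control epithelium. None of these 31 members was called (0 higher, 0 lower by the rule of size), while 5.98% of all 13846 genes with enough counts were called higher and 2.8% lower. The ratio was above 1 for 13 members and below 1 for 18, while 38.6% of all genes lay below 1, with a median log2 ratio of -0.013 for the members and 0.066 for all genes. With median-of-ratios scaling Ppard, Cpt1a, Cpt2, Acads and Decr1 also lay below a ratio of 1. The members ran from -0.40 for Acsl1 to 0.48 for Plin2. Wing cells were 30.2% of control and 24.1% of diabetic cells, so sums over all cells mix the labels in unlike shares. With the same label weights in both libraries, 14 of the 31 ratios moved beyond their counting interval and 17 stayed within it. Cd36, a fatty acid transporter of the cell surface, was the member with too few counts.

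**Figure D1:**
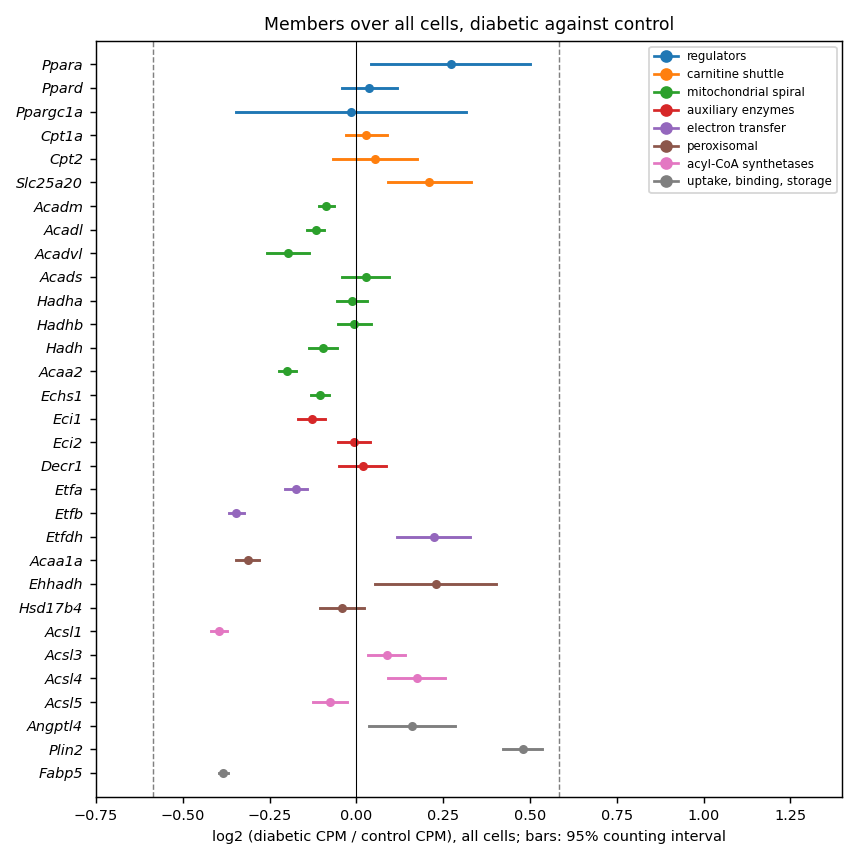
Log2 ratio of diabetic to control CPM over all cells for 31 members, coloured by role; points are ratios, bars 95% counting intervals and dashed lines the ratio of 1.5 either way. All 31 points lie between the dashed lines, from Acsl1 at -0.40 to Plin2 at 0.48.

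The regulators hardly differed between the libraries over all cells. Ppara (chr15:85734983-85802819), the receptor of the fasting response, stood at 1.58 CPM in control and 1.91 in diabetic cells, from 310 and 326 counts. Ppard (chr17:28232700-28301474) stood at 14.1 and 14.5 CPM. Ppargc1a, a coactivator that raises mitochondrial genes with the PPARs, stood at 0.85 and 0.84 CPM. The log2 ratios were 0.27 (95% 0.043 to 0.50), 0.037 (-0.041 to 0.12) and -0.015 (-0.35 to 0.32). Unlike the other regulators, Ppard was highest in Squam cells, at 28.2 and 32.96 CPM, and its next levels were 15.5 and 17.9 in Conj and 13.7 and 14.0 in Wing. In the LSC, Basal, TAC1 and TAC2 labels Ppard lay between 5.04 and 9.56 CPM. Ppara ran the other way, with 2.69 and 2.87 CPM in Basal and 0.38 and 0.16 in Squam cells.

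The carnitine shuttle differed little in sum over all cells. Cpt1a (chr19:3322334-3385733), the outer-membrane enzyme that controls entry of long-chain fatty acids into mitochondria, stood at 25.1 and 25.6 CPM. Cpt2, its inner-membrane partner, stood at 6.07 and 6.30 CPM, and Slc25a20, the carrier between them, at 5.91 and 6.84. The ratio of Slc25a20 was 1.16 (95% 1.07 to 1.26). The summed CPM of the 3 genes was 37.1 and 38.7, a ratio of 1.04 (95% 1.01 to 1.08). By label the ratio of the sum ran from 0.74 (0.62 to 0.88) in Squam to 1.13 (1.01 to 1.26) in TAC2.

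Of the 9 mitochondrial spiral genes, 8 lay below a ratio of 1 over all cells, none past the rule. Over the alternatives the log2 ratios of Hadha (-0.087 to 0.006), Hadhb (-0.080 to 0.045) and Acads (-0.095 to 0.027) lay on both sides of 0. Those of the other spiral genes stayed below 0. Acadm, the medium-chain dehydrogenase and the member of this group with the most counts, stood at 198 and 186 CPM, and Acadl, the long-chain dehydrogenase, at 143 and 131. Acaa2, the thiolase of the last step, stood at 156 and 136 CPM. Acadvl, Hadh and Acaa2 were below a ratio of 1 in all 7 epithelial labels (LSC, Basal, TAC1, TAC2, Wing, Squam and Conj). Acads, the short-chain dehydrogenase, was the gene above 1, at 19.0 and 19.4 CPM. The summed CPM of the group was 818 and 759, 1.08-fold lower in the diabetic library.

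Among the auxiliary enzymes, which prepare unsaturated fatty acids for the spiral, Eci1 stood at 58.9 and 53.8 CPM, Eci2 at 43.0 and 42.8 and Decr1 at 19.1 and 19.3. The subunits of the electron transfer flavoprotein and the oxidoreductase that accepts their electrons lay on opposite sides of a ratio of 1. Etfb (chr7:43444083-43457800), the beta subunit, stood at 206 CPM in control and 162 in diabetic cells. Its log2 ratio was -0.35 (95% -0.37 to -0.32), and it was below 0 in all 7 epithelial labels, from -0.48 in Conj to -0.22 in TAC2. Etfa, the alpha subunit, stood at 88.6 and 78.5 CPM and was also below a ratio of 1 in 7 of 7 labels. Etfdh, the oxidoreductase, stood at 7.38 and 8.62 CPM and was above a ratio of 1 in 7 of 7 labels, with log2 ratios from 0.08 to 0.27. None of these values was past the rule of size, and 1 pair of libraries stands behind all 7 labels.

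The peroxisomal genes also lay on both sides of a ratio of 1 over all cells, without a call. Acaa1a, the peroxisomal thiolase, stood at 91.7 and 73.9 CPM and was below a ratio of 1 in 7 of 7 labels, at log2 ratios from -0.57 in LSC to -0.16 in TAC1. It has a close copy, Acaa1b, so the assignment of its reads is uncertain. Ehhadh, the bifunctional enzyme, stood at 2.74 and 3.21 CPM and was above a ratio of 1 in the 5 labels where it had 50 counts or more. Hsd17b4, the multifunctional enzyme for branched and very long chains, stood at 22.3 and 21.7 CPM.

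Acsl1 (chr8:46471037-46536051), the synthetase that feeds oxidation and storage in many tissues, had the lowest ratio of the 31 members over all cells. It stood at 190 CPM in control and 145 in diabetic cells, 1.32-fold lower (95% 1.30 to 1.34). By label it was 193 and 108 CPM in LSC, 90.0 and 68.1 in Basal, 67.4 and 60.4 in TAC1 and 93.9 and 83.2 in TAC2. The levels were 280 and 218 CPM in Wing, 167 and 170 in Squam, and 266 and 226 in Conj. It was lower in the diabetic library in 6 of 7 labels, and past the rule in LSC. Acsl3 stood at 30.4 and 32.3 CPM over all cells, Acsl4, which prefers arachidonate, at 12.4 and 14.0, and Acsl5 at 38.6 and 36.6.

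Plin2 (chr4:86648386-86670060), a coat protein of lipid droplets and a known PPAR target, had the highest ratio of the members, 23.8 CPM in control and 33.2 in diabetic cells, 1.39-fold (95% 1.34 to 1.45). In Basal cells it rose from 37.6 to 60.8 CPM, 1.62-fold (1.504 to 1.737). It was 28.0 and 41.0 CPM in TAC1, 28.1 and 38.5 in Wing and 27.3 and 29.1 in TAC2. In the other labels the control level was the higher, at 18.4 and 11.1 CPM in LSC and 5.05 and 4.02 in Squam, neither called. In Conj cells it was 9.00 and 5.56 CPM and was called 1.62-fold lower (1.17 to 2.26) from 100 and 62 counts. The Conj call was lost with every cell weighted equally (log2 ratio -0.44 against -0.70). It was also lost with each cell thinned to 5000 UMIs, at a minimum of 200 counts, and over the deeper cells of the label. Plin2 was the 1 of 31 members called in Basal cells, where 2.63% of all genes were called higher and 2.38% lower, so the count is near the background. Over only the Basal cells at or above the median UMI count of their library, a setting chosen after seeing the data, its log2 ratio fell from 0.69 to 0.52 and the call was lost. The median depth of Basal cells was 13146 UMIs in control and 14439 in diabetic cells, and its part in the difference was not tested.

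Fabp5 (chr3:10012548-10016607), the epidermal fatty acid binding protein that carries ligands to Ppard, was the member with the most counts of its group. It stood at 554 CPM in control and 425 in diabetic cells, 1.30-fold lower (95% 1.29 to 1.32). It was 1666 and 770 CPM in LSC, 897 and 673 in Wing, and 113 and 60.5 in Squam. It was 387 and 358 CPM in Basal, 358 and 355 in TAC1, 513 and 483 in TAC2, and 346 and 336 in Conj. The ratio was below 1 in 7 of 7 labels, and past the rule in LSC and in Squam. Processed copies of Fabp5 exist in the mouse genome, and how the authors' counting treated them is not known here. Angptl4, a secreted lipase inhibitor and PPAR target, stood at 5.59 and 6.25 CPM over all cells. It was highest in the inner labels, 15.1 and 15.5 CPM in Basal and 15.9 and 10.6 in TAC1.

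**Figure D2:**
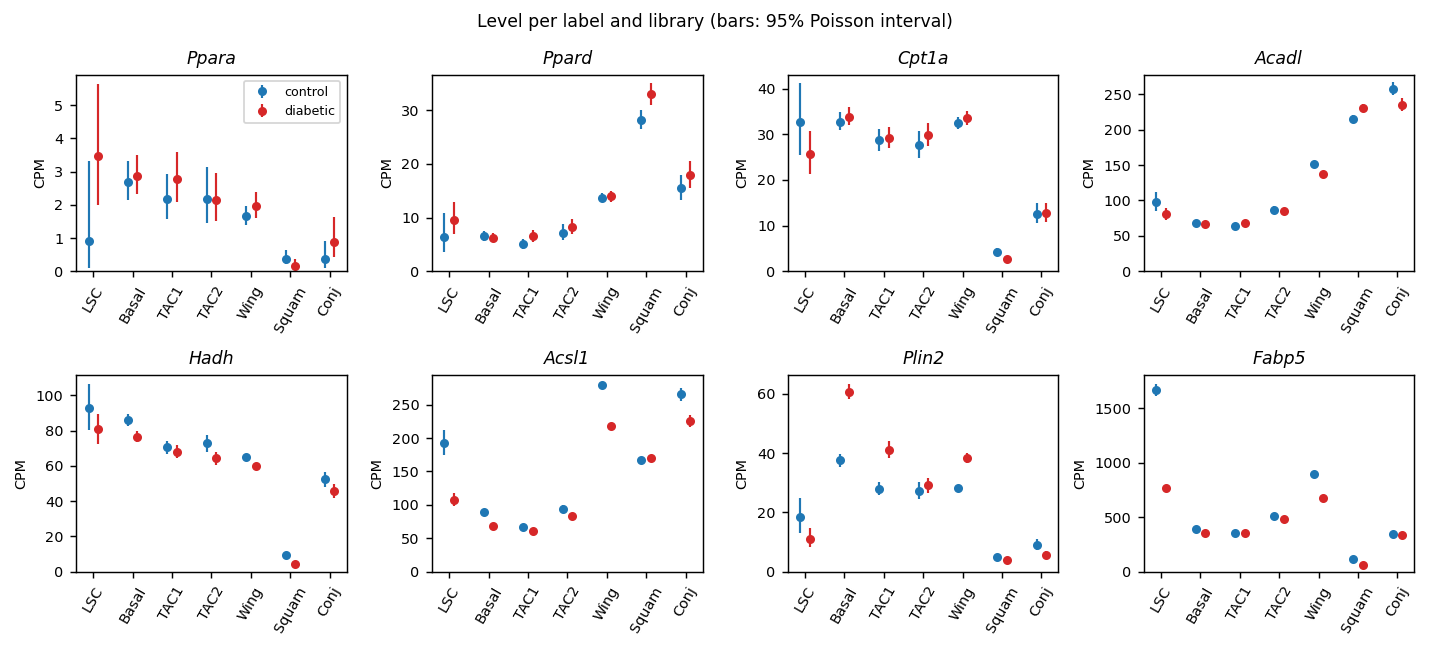
CPM of 8 members in each of 7 epithelial labels, control in blue and diabetic in red, with 95% Poisson intervals. Ppard, Acadl and Acsl1 are higher in Squam than in Basal cells of both libraries, Ppara, Cpt1a, Hadh, Plin2 and Fabp5 lower, and Fabp5 in LSC falls from 1666 to 770 CPM.

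Within the labels, 10 calls were made on 8 members, and 8 of the calls were lower in the diabetic library. In LSC cells, where the limbal marker Gpha2 was highest (2875 and 2050 CPM), 2 of 27 members were called, both lower, where 2.61% of all genes were called lower and 2.63% higher. Fabp5 fell 2.16-fold (95% 2.06 to 2.27) and Acsl1 1.79-fold (1.57 to 2.05). The median LSC cell held Fabp5 at 1053 CPM in control and 307 in diabetic cells. With 27 members, 2 calls are too few to compare with the background. The diabetic LSC cells had lower levels of all 4 wing markers, by log2 ratios from -1.32 to -0.40, and of 4 of 5 squamous markers. The summed wing list was 6036 and 4483 CPM and the squamous list 365 and 254. Of the limbal markers, Gpha2, Krt15, Apoe and Cd63 were lower and Krt14 and Ifitm3 higher. The limbal list summed to 20447 and 17917 CPM. All 6 cycling markers were higher in diabetic LSC cells, 109 and 188 CPM in sum, with Mki67 at 5.05 and 29.5, and the stromal gene Dcn stood at 13.3 and 23.7. There were 202 and 331 LSC cells at median depths of 9260 and 12284 UMIs, and the part of these shifts in the 2 calls was not tested.

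Squam cells held the largest number of member calls of the 7 labels. Of 29 members, 0 were called higher and 5 lower, where 1.79% of all genes were called higher and 7.75% lower. Hadh, the 3-hydroxyacyl-CoA dehydrogenase of short chains, fell from 9.54 to 4.22 CPM, 2.26-fold (95% 1.85 to 2.78), from 372 and 129 counts. Decr1, the dienoyl-CoA reductase, fell from 2.64 to 1.41 CPM, from 103 and 43 counts. Acads fell from 4.90 to 2.91 CPM and Cpt1a from 4.31 to 2.68, the latter from 168 and 82 counts. Fabp5 fell 1.87-fold (1.77 to 1.97).

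Of the other spiral genes in Squam cells, Acaa2 stood at 48.9 and 33.6 CPM, 1.46-fold lower and just under the rule, Echs1 at 76.8 and 58.3, and Acadvl at 9.56 and 7.75. Acadm stood at 240 and 246 CPM, Acadl at 215 and 231, Hadha and Hadhb, the subunits of the trifunctional protein, at 37.8 and 36.0 and at 42.9 and 43.1. The summed CPM of the 9 spiral genes in Squam cells was 685 and 662, most of it from Acadm and Acadl. The median log2 ratio was -0.33 for the members and -0.08 for all genes of the label, and 22 of 29 members lay below a ratio of 1, against 61.1% of all genes. All 5 basal markers were lower in diabetic Squam cells, by log2 ratios from -0.74 to -0.21, as were 5 of 6 cycling and 3 of 6 limbal markers. Itgb4, a hemidesmosome integrin, stood at 9.15 and 5.49 CPM there, and the summed basal list at 4308 and 3689. The wing markers Dsg1a (106 and 72.2), Dsc2 (210 and 154) and Lypd3 (80.5 and 49.6 CPM) were lower and Krt12 was level (12230 and 12520). The squamous list summed to 32000 and 43921 CPM, mostly Psca (28930 and 40529). Ndrg1 (146 and 210 CPM) and Muc4 (2327 and 2627) were also higher, while Cldn23 and Cldn4 were lower. The part of these shifts in the 5 calls was not tested. With every cell weighted equally, Cpt1a moved to a log2 ratio of -0.08 from -0.68, and Acads to -0.42 from -0.75, and both calls were lost. Decr1 stood at -1.18 in that setting, and its call was lost because its wider intervals met. Hadh and Fabp5 kept their calls in each alternative at the fold of 1.5.

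The other labels held few calls. In Wing cells 1 of 31 members was called, with a background of 3.93% higher and 2.59% lower. This was Angptl4, which rose from 1.53 to 2.43 CPM on 121 and 129 counts. The call was lost without likely doublets (log2 ratio 0.58 against 0.67). With every cell weighted equally the log2 ratio was 0.66 and the intervals met. The call was also lost with each cell thinned to 5000 UMIs and over the deeper cells of the label. In Conj cells 1 of 27 was called, Plin2, with a background of 2.52% higher and 1.95% lower. In TAC1 cells 0 of 30 were called (background 1.7% higher, 1.52% lower), and Angptl4 lay just under the rule at 15.9 and 10.6 CPM. In TAC2 cells 0 of 30 were called (2.21% higher, 1.35% lower). The median log2 ratio of the members was -0.17 in LSC, -0.04 in Basal, -0.05 in TAC1, -0.01 in TAC2, -0.04 in Wing and -0.20 in Conj, where all genes had medians between 0.0069 and 0.041.

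**Figure D3:**
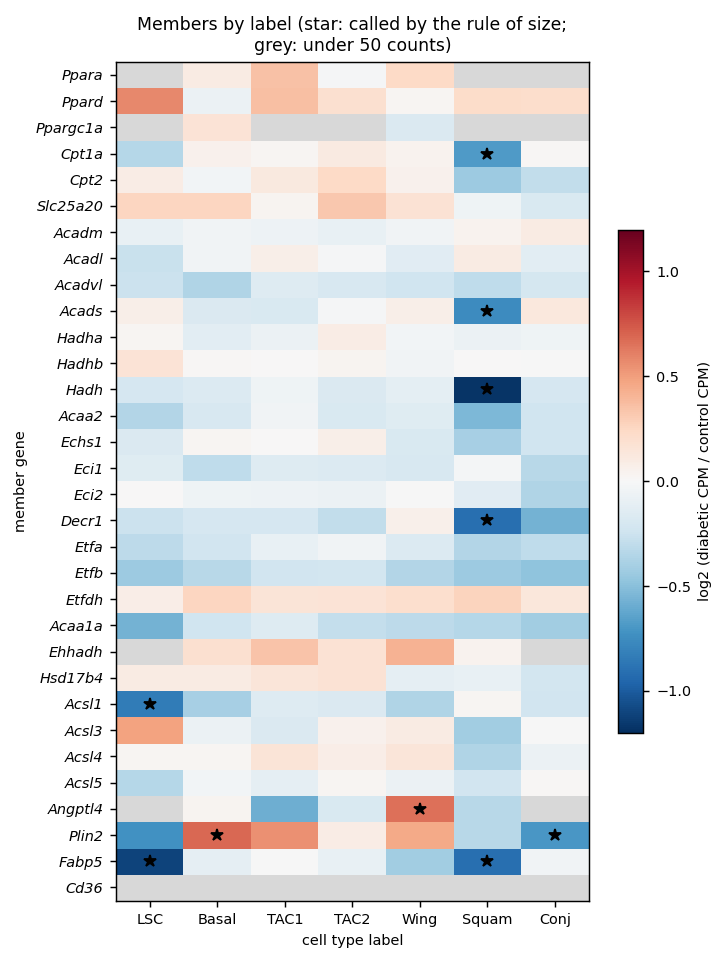
Log2 ratio of diabetic to control CPM for each member (rows, by role) in 7 epithelial labels (columns), with stars for the 10 calls and grey for fewer than 50 summed counts. Squam has 5 starred members, all lower; Etfb and Acaa1a are below 0 and Etfdh above 0 in every column.

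Across the layers of the epithelium the members differed far more than between the libraries, and so did genes in general. Labels were made from the same cells and genes, so the layer pattern is a description. Of 30 members with 50 or more counts in each library, 4 were at least 1.5 times higher in Squam than in Basal cells of both libraries, and 21 lower. Among all 11231 genes, 16.1% were higher and 58.8% lower. The members' median log2 ratio was -1.60 in control and -1.69 in diabetic cells, against -0.98 and -1.08 for all genes. Median-of-ratios scaling moves the median of all genes up by 1.04 and 1.13. The counts were then 8 higher and 12 lower (all genes 33.2% and 29.7%), and the higher group gained Hadha, Hadhb, Etfb and Acsl5. The members' median was then -0.56 in both libraries, against 0.06 in control and 0.05 in diabetic cells for all genes.

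The 4 members higher in Squam under both scalings were Ppard, Acadl, Acsl1 and Acadm. Ppard was 4.29-fold higher in control and 5.25-fold in diabetic cells, and Acadl 3.14-fold and 3.46-fold, from 68.5 to 215 CPM and from 66.6 to 231. Acsl1 was 1.86-fold and 2.49-fold higher, and Acadm 1.76-fold and 1.87-fold. Among members lower in Squam, Decr1 was 16.7-fold and 27.2-fold lower, Angptl4 15.9-fold and 20.6-fold, and Hadh 9.00-fold and 18.1-fold. Cpt1a was 7.61-fold and 12.6-fold lower, Acads 7.58-fold and 11.3-fold, and Plin2 7.44-fold and 15.1-fold. The acyl-CoA dehydrogenases of medium and long chains thus stood higher in Squam than in Basal cells, and that of short chains and the shuttle enzyme Cpt1a lower. Acadvl, for very long chains, was 4.10-fold and 3.93-fold lower. The 3 promoters printed above span both groups, Acadm among the higher and Plin2 and Cpt1a among the lower.

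**Figure D4:**
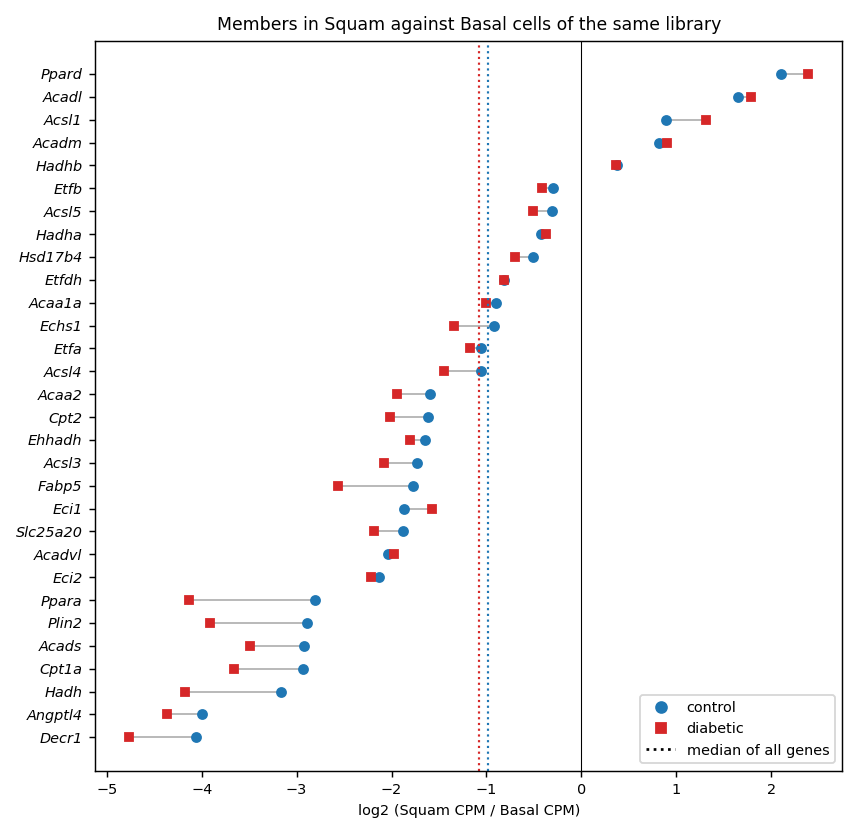
Log2 ratio of Squam to Basal CPM for 30 members in the control (circles) and diabetic (squares) library, sorted by the control value; dotted lines are the medians of all genes, -0.98 and -1.08. Ppard, Acadl, Acsl1 and Acadm lie on the right in both libraries and Decr1, Angptl4 and Hadh at the far left.

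Cd36 was found almost only among Immune cells. Of its 9 control counts 8 were in the 26 Immune cells (83.3 CPM), and all 5 of its diabetic counts were in the 10 Immune cells (159 CPM). The epithelial labels together held 1 count in control and 0 in diabetic cells. Endothelial cells and adipocytes are also known to express Cd36. The 5 of 7 listed endothelial markers in the matrix summed to 1.22 and 1.54 CPM over all cells, and the 1 of 6 adipocyte markers in the matrix stood at 0.071 and 0.035.

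Other genes of the pathway, 123 in the matrix beyond the members, had 2 called higher and 3 lower of 113 with enough counts over all cells, where 5.98% of all genes were called higher and 2.8% lower. Their median log2 ratio was -0.02. None of the 17 receptor partners and coregulators was called over all cells, and Rxra, the retinoid X receptor alpha, stood at 33.2 and 29.1 CPM. None of 20 peroxisomal genes was called over all cells. None of 17 further mitochondrial genes was called over all cells, and within labels Acsf2 was called lower in LSC (2.20-fold), Acot2 in Basal (1.53-fold) and Mcee in Conj cells (1.53-fold).

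Pdk4, a textbook PPAR target in liver and muscle and the kinase that turns off pyruvate oxidation, had 0 counts in control and 7 in diabetic cells. Of 16 listed targets with enough counts 1 was called over all cells, Cyp4a10, a fatty acid hydroxylase, higher on 16 and 34 counts, a share near the 5.98% of all genes. None of 6 ketone genes was called over all cells, and all 6 were below a ratio of 1, as were 38.6% of all genes, with a median log2 ratio of -0.24. In Squam cells Acat1, the mitochondrial acetoacetyl-CoA thiolase, fell from 9.79 to 5.98 CPM.

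The other calls over all cells were in the uptake, droplet and synthesis lists, 1 to 2 genes each, which set against 5.98% of all genes called higher and 2.8% lower are too few to compare. Vldlr, the receptor for very low density lipoprotein, fell from 9.80 to 4.92 CPM, 1.99-fold (95% 1.84 to 2.16), 1 of 12 uptake genes called. It was called lower in 7 of 7 epithelial labels, from 1.73-fold in Wing to 3.20-fold in LSC. G0s2, an inhibitor of triglyceride lipase, rose from 0.86 to 1.46 CPM, and Cideb, a droplet protein, fell from 0.36 to 0.19, 2 of 17 droplet genes. G0s2 rose in Basal (1.90 to 3.32 CPM) and TAC1 cells (1.79 to 3.47) and fell in LSC cells (17.4 to 5.43). Scd2, a stearoyl-CoA desaturase, fell from 451 to 290 CPM, 1.55-fold (1.53 to 1.57), 1 of 16 synthesis genes. It was called lower in LSC (207 to 114) and Wing cells (680 to 452). Elovl6, a fatty acid elongase, fell from 41.1 to 23.1 CPM in Squam cells.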

How the data were processed

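Single cells of corneal epithelium from 1 control and 1 diabetic pool were profiled with the Chromium Next GEM 3′ kit v3.1, which counts 1 tag near the 3′ end of each captured molecule, so CPM were not divided by gene length. The authors deposited raw UMI counts of each gene in each cell, with a cell table of group and cell type label. The submitters' processing notes name Cell Ranger 5.0.0, Seurat 4 and mm10. Their roles, the cell filters and any doublet removal were not given in the sources used here. Here the counts were summed per library and label and expressed as CPM, with exact 95% Poisson intervals, and with exact conditional binomial intervals for ratios. Every called member, the PPAR genes and the member of each role with the most counts are named with values. Of the other pathway lists, up to 4 called genes each and Pdk4 and Rxra are named; some genes that this rule takes are left out of the text. The members and lists were chosen with earlier results of these data known. The rule of size was tested on simulated Poisson counts without variation between mice or pools, so that test covers counting error only. Alternatives were scaling, minimums of 10 and 200 counts, folds of 1.25 and 2, removal of cells over 10% mitochondrial counts, equal cell weights, thinning to 5000 UMIs (486 control and 264 diabetic cells under that depth left out), equal label weights, and removal of Conj and Immune cells. Scrublet's own threshold marked 0 and 2 cells and so did not work, and the top 8% of scores in each library (791 and 683 cells) were left out as likely doublets in an alternative. Gene positions are from GENCODE M21 on GRCm38, and promoters from RefSeq on GRCm38.p6. Sums and intervals used scipy 1.17.1 and pandas 2.3.3 under Python 3.11.15, doublet scores scanpy 1.11.5, and figures matplotlib 3.10.9.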

Additional observations from a re-analysis of the deposited data

Results flagged for a closer look

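Plin2 went opposite ways in separate labels, with a log2 ratio of diabetic to control CPM of 0.69 in Basal cells and -0.70 in Conj cells, and the difference between these labels was not tested. Angptl4 also differed in direction, at 0.67 in Wing cells (called) and -0.58 in TAC1 cells (just under the rule). Cd36 had counts in the Immune cells, which the comparison by label left aside, at 83.3 CPM in control and 159 in diabetic cells, against 1 and 0 counts in all epithelial cells.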

How the results depend on the processing

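No paired analysis was possible because each group has 1 library. Among 383 single values recomputed under the alternatives, 0 that were called changed sign, 296 stayed within their counting interval and 87 moved beyond it. No ratio over all cells was called, so the count of sign changes does not cover them. Several lay on both sides of 0 over the alternatives, such as Ppara (log2 -0.013 to 0.33), Ehhadh (-0.11 to 0.30) and Acsl5 (-0.15 to 0.013). Others kept their side, such as Plin2 (0.36 to 0.55), Etfdh (0.15 to 0.42), Etfb (-0.42 to -0.34) and Acsl1 (-0.47 to -0.27). The count over all cells stayed at 0 except at the lower alternative fold, where it was 4 (Plin2 higher, Etfb, Acsl1 and Fabp5 lower). The median over all cells was -0.087 with median-of-ratios scaling and -0.068 with every cell weighted equally. The lower fold gave 6 calls in LSC, 4 in Basal, 2 in TAC1, 6 in Wing, 12 in Squam (all lower) and 5 in Conj, and a fold of 2 gave 1, 0, 0, 0, 1 and 0. Equal cell weights gave 2 calls in TAC1, 0 in Wing, 2 in Squam and 0 in Conj, thinning gave 2 in Squam, and a minimum of 200 counts gave 0 in Conj. Thinning changed the called member in Wing from Angptl4 to Plin2 (higher) and in Conj from Plin2 to Acaa1a (lower). Without likely doublets TAC1 had 1 call (Angptl4 lower) and Wing 0, and median-of-ratios scaling gave 1 in TAC1, also Angptl4 lower. The deeper cells of each label and library, an alternative chosen after seeing the data, gave 4 calls in LSC, 0 in Basal, 1 in TAC1 and 0 in Conj. In Wing the deeper cells gave a call for Ehhadh (higher) in place of Angptl4. The layer comparison gave 8 members higher and 12 lower in Squam with median-of-ratios scaling, and 2 higher at a fold of 2. The cause was not tested in any of these, beyond the fewer counts that thinning and higher minimums leave. Fabp5 and Acsl1 in LSC kept their calls in each alternative at the fold of 1.5. Depth limits the low members: Ppara, Ppargc1a, Ehhadh and Angptl4 had under 50 counts in some labels and could not be called there, whatever their ratio.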
